A study of Homo sapiens with 12 samples.

Results

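The 47 genes described here encode proteins of striated muscle. They comprise 15 genes of the myosin thick filament, 11 of the actin thin filament, 11 of the Z-disc, the M-band and titin, desmin (DES) and the small muscle protein SMPX, 5 of the membrane junctions and the sarcoplasmic reticulum, and 3 of energy and oxygen supply. They were chosen by name, for the function of their proteins, with earlier results of these data known. They were read from each gene expression table by gene symbol. Of the 47 genes, 41 had counts in the table with siCHD4, among 31911 genes with counts in all, and 39 had counts in the table with siCHD3, among 33154. No counts were listed in either table for MYH1, MYL1, MYL7, TNNI2 and ACTN3, in the siCHD4 table for MYH6, and in the siCHD3 table for MYH7, MYBPC2 and MYBPC3.

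The sarcomere is the contractile unit of skeletal and heart muscle. Myosin thick filaments pull on actin thin filaments, which are anchored in the Z-disc, and troponin on the thin filament opens the myosin sites when calcium is released. Calcium comes from the sarcoplasmic reticulum at junctions that junctophilins hold next to the cell membrane. Neither melanocytes nor melanoma cells are known to build sarcomeres.

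The cells were 501Mel, an established human melanoma line. They were transfected with siRNA pools and harvested 72 h later. RNA-seq compared siCHD4 replicates 1 to 3 (silenced for CHD4) with siCtrl replicates 1 to 3, and siCHD3 replicates 1 to 3 (silenced for CHD3) with siCtrl replicates 4 to 6 (control siRNA). CHD4 and CHD3 are the alternative ATPase subunits of the NuRD complex, a chromatin remodeller that also removes acetyl groups from histones.

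Total counts lay between 82294000 and 102005319 in the siCHD4 libraries, against 44966728 to 94946401 in siCtrl replicates 1 to 3, and between 42638568 and 57219281 in the siCHD3 libraries, against 38573214 to 49903299 in siCtrl replicates 4 to 6. CHD4 had 6914, 5036 and 6799 counts in the siCHD4 libraries, against 53747, 37082 and 21689 in siCtrl replicates 1 to 3, and CHD3 had 815, 764 and 982 counts in the siCHD3 libraries, against 3022, 4950 and 3778 in siCtrl replicates 4 to 6, so every library matched its label. The siCtrl replicate 3 library stood apart from the others. It had the lowest total in its table and a scaling factor (TMM) of 0.816, and the results that turn on it are given with and without it. The study calls its replicates biological, and the labels do not say whether they came from separate cultures, so the p-values measure the spread between these libraries. The libraries are bulk RNA, in which fewer cells expressing a gene and less RNA per cell cannot be told apart. All 9 melanocyte marker genes had counts in every library, with a summed level of 20290 to 21500 CPM in siCHD4 and 15130 to 19950 CPM in siCtrl replicates 1 to 3. The myogenic regulators MYF5, MYF6 and PAX7 had no counts listed in either table.

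Levels are given in CPM, the raw count per 1000000 counts of the library after TMM scaling, as mean ± SD over 3 libraries. Fold changes are log2 values ± SE from the edgeR quasi-likelihood test, with Benjamini-Hochberg adjustment of p over every gene tested. Calls required that the adjusted p was below 0.05 and that the log2 fold change lay outside -1 to 1. Members with too few counts for the test are described by their counts and, where a ratio is given, by its exact 95% interval, which covers counting error only. Levels per kb of exon allowed comparison between genes, and these averaged all 12 libraries, whose tables were scaled separately.

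Most of these genes were near silent. The mitochondrial creatine kinase CKMT2 had the highest mean over the 12 libraries at 4.34 CPM per kb, followed by the Z-disc adaptor LDB3 (1.80), the calcineurin-binding Z-disc protein MYOZ2 (1.68), the slow skeletal troponin T TNNT1 (1.58) and MYOZ1 (0.738), the fast-fibre relative of MYOZ2. The means of MYOZ1 and MYOZ2 pool unlike groups, since MYOZ1 was at 2.39 CPM per kb in siCHD4 and at 0.194 and 0.0918 in siCtrl replicates 1 to 3 and 4 to 6, and MYOZ2 at 2.18 in siCHD4 and at 0.548 and 2.39 in these siCtrl sets. By deposited gene length instead of exon bases MYOZ2 ranked 6 and MYOZ1 ranked 9. JPH3 (0.599 CPM per kb), a junctophilin known from brain, and MYH3 (0.236), the embryonic myosin heavy chain, led the junction and the thick filament genes, and SMPX (0.135) led DES (0.0419). Titin (TTN), the giant spring of the sarcomere, was at 0.000145 CPM per kb, with 1, 3 and 0 counts in siCHD4 and 0 in each of siCtrl replicates 1 to 3. The summed level of the 47 genes was 59.9 to 61.9 CPM in the siCHD4 libraries and 45.0, 52.8 and 60.4 CPM in siCtrl replicates 1 to 3. It was 37.8 to 40.1 CPM in the siCHD3 libraries and 55.1 to 57.1 CPM in siCtrl replicates 4 to 6. LDB3, CKMT2, JPH3, TNNT1 and MYOZ2 carried most of these sums.

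**Figure D1:**
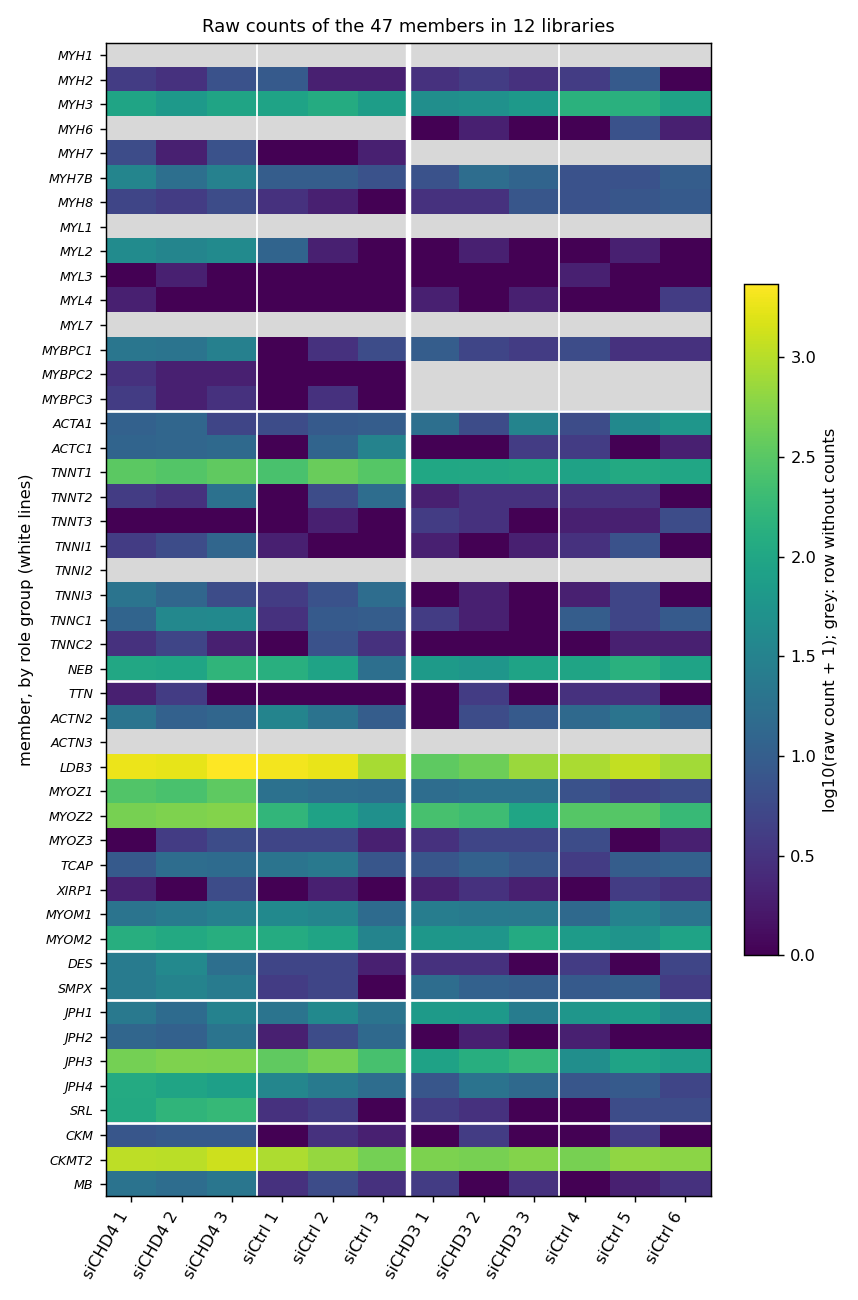
Raw counts of the 47 genes (rows, in role groups separated by white lines) in the 12 libraries (columns), as log10 of the count plus 1, with rows without counts in grey. LDB3 and CKMT2 are bright in every library, most thick and thin filament genes are dark, and SRL and MYOZ1 are brighter in the 3 siCHD4 libraries than in the other 9.

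The sequence just before the transcription start is shown for the 4 called genes whose promoter held a match to a muscle factor motif, because these letters can be set beside their response. RefSeq promoter windows on GRCh38.p14 (250 bases before to 50 bases after the start) were matched for 29 of the 47 genes. No entry was matched for MYH3, MYH7, MYH7B, MYL2, MYL4, MYBPC2, TNNT3, TNNI1, TNNI2, TNNC1, TNNC2, ACTN3, TCAP, MYOM2, DES, JPH1, JPH3 and SRL. The motifs were searched on both strands. They were the E-box of basic helix-loop-helix factors (CANNTG), its form preferred by myogenic factors (CAGCTG, also counted as an E-box), the TATA box (TATAAA), the MEF2 site and the CArG box bound by SRF, and TATAAA can lie inside a MEF2 site. The 250 bases before the start are printed 5′ to 3′ on the strand of the gene, with MEF2 sites and CArG boxes in capitals. MYOZ1 lies on the minus strand (chr10:73641475-73641724), MYOZ2 on the plus strand (chr4:119135582-119135831), SMPX on the minus strand (chrX:21758117-21758366) and LDB3 on the plus strand (chr10:86668261-86668510).
MYOZ1: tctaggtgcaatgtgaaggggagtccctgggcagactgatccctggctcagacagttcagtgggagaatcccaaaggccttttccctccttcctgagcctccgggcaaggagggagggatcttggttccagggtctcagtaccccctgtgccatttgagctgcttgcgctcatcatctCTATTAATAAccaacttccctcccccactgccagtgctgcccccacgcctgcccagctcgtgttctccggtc
MYOZ2: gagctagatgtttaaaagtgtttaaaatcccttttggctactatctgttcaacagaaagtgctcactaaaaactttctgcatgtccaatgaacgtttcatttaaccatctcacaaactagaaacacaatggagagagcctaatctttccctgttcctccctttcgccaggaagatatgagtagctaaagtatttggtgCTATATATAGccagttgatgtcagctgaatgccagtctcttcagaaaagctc
SMPX: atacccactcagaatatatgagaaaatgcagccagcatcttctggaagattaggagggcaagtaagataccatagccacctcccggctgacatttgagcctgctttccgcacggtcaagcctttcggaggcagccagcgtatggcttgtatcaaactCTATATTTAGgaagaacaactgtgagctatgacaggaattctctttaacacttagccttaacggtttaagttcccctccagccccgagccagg
LDB3: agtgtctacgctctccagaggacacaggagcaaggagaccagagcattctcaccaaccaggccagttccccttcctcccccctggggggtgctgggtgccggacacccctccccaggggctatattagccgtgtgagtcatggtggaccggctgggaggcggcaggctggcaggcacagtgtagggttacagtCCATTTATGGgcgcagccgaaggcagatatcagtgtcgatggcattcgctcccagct
The capitals are a MEF2 site from -72 to -63 in MYOZ1, from -52 to -43 in MYOZ2 and from -93 to -84 in SMPX, and a CArG box from -57 to -48 in LDB3, counted from -1 for the base before the start. The muscle E-box CAGCTG stood beside the MEF2 site of MYOZ2, from -31 to -26. A MEF2 site was held by 27.6% of the 29 promoters and by 2.99% of all 35116 promoters of the same length, and a CArG box by 17.2% and 1.29%. CAGCTG was held by 31.0% and 17.9%, TATAAA by 34.5% and 11.5%, and any E-box by 75.9% and 68.7%. The 3 genes with a MEF2 site that could be tested after siCHD4 were MYOZ1, MYOZ2 and SMPX. SMPX was near silent in siCtrl and reached the test only through its siCHD4 counts, so being tested depended in part on the response. After siCHD3 MYOZ1 was called higher, MYOZ2 was tested and not called, and SMPX had too few counts to test. The other 5 promoters with such a site belonged to MYBPC3, MYH1, MYH8, TTN and XIRP1, which had no counts or too few to test and so no response to set beside it. JPH4 was called after siCHD4 with none of these motifs in its window. The 5 promoters with a CArG box were those of LDB3, ACTC1, MYOM1, ACTA1 and MYL7. After siCHD3 LDB3 was called lower, while MYOM1 and ACTA1 were tested and not called. After siCHD4 LDB3, ACTC1 and MYOM1 were tested and not called. ACTA1 was not tested after siCHD4, ACTC1 was not tested after siCHD3, and MYL7 had no counts listed. A match is a description of letters and not a bound site.

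The first comparison asked what CHD4 silencing did to these genes. Of 25 genes with enough counts to test, 6 rose and none fell, against 4.8% higher and 1.65% lower of all 17018 genes tested. The 6 were SRL and JPH4 of the junctions and sarcoplasmic reticulum, MYOZ1 and MYOZ2 of the Z-disc, and DES and SMPX. No gene of the thick or thin filament was called. At an unadjusted p under 0.05, 12 of the 25 passed in either direction, against 21.8% of all genes tested, and the median log2 fold change of the 25 was 0.31, against -0.06 for all genes tested. A gene silent in siCtrl reaches the test only through its siCHD4 counts, and the members were chosen with earlier results of these data known. These shares are therefore a description of the members and not a test of the group.

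SRL (ENSG00000185739, GRCh37 chromosome 16, 4239375 to 4292081, minus strand) encodes sarcalumenin, a calcium-binding glycoprotein of the sarcoplasmic reticulum lumen. It had 109, 160 and 182 counts in siCHD4 replicates 1 to 3, against 2, 3 and 0 counts in siCtrl replicates 1 to 3. Every siCHD4 library stood far above every siCtrl library, at 1.60 ± 0.313 CPM in siCHD4 and 0.0202 ± 0.0198 CPM in siCtrl. SRL rose with a log2 fold change of 5.99 ± 0.50 (adjusted p = 0.00129, edgeR), and its value depends on a siCtrl level of only 5 counts in all.

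MYOZ1 (ENSG00000177791, chromosome 10, 75391370 to 75401232, minus strand), whose protein binds calcineurin and alpha-actinin at the Z-disc of fast fibres, had 284, 249 and 341 counts in siCHD4, against 17, 15 and 14 in siCtrl. The groups did not overlap, with 3.11 ± 0.193 CPM in siCHD4 and 0.253 ± 0.112 CPM in siCtrl, and the log2 fold change was 3.70 ± 0.33 (edgeR adjusted p = 0.00145). MYOZ2 (ENSG00000172399, chromosome 4, 120056987 to 120108944, plus strand), its relative of heart and slow fibres, had 475, 517 and 556 counts in siCHD4, against 166, 86 and 48 in siCtrl. Its groups did not overlap either, at 5.55 ± 0.428 CPM in siCHD4 and 1.40 ± 0.320 CPM in siCtrl, with a log2 fold change of 1.98 ± 0.24 (adjusted p = 0.00379, edgeR). The third family member, MYOZ3, had 0, 3 and 5 counts in siCHD4, against 4, 4 and 1 in siCtrl.

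SMPX (ENSG00000091482, chromosome X, 21724096 to 21776234, minus strand) encodes a small cytoskeletal protein of striated muscle that is also needed in the inner ear. SMPX had 24, 31 and 24 counts in siCHD4, against 3, 4 and 0 in siCtrl, with a log2 fold change of 3.06 ± 0.60 (adjusted p = 0.0230, edgeR). DES (ENSG00000175084, chromosome 2, 220283099 to 220291457, plus strand) encodes desmin, the muscle intermediate filament protein, found in smooth muscle too. DES had 24, 37 and 16 counts in siCHD4, against 4, 4 and 1 in siCtrl, with a log2 fold change of 2.68 ± 0.57 (adjusted p = 0.0312, edgeR). For both genes each siCHD4 library was above each siCtrl library, and the levels stayed low, DES at 0.285 ± 0.141 CPM in siCHD4 and 0.0407 ± 0.0128 CPM in siCtrl, and SMPX at 0.287 ± 0.0693 CPM in siCHD4 and 0.0281 ± 0.0265 CPM in siCtrl.

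The junctophilins did not move together. JPH4 (ENSG00000092051, chromosome 14, 24037247 to 24047999, minus strand), a junctophilin known from neurons, had 113, 92 and 79 counts in siCHD4, against 34, 23 and 15 in siCtrl. All its siCHD4 libraries were above its siCtrl libraries, and it rose with a log2 fold change of 1.55 ± 0.31 (adjusted p = 0.0260, edgeR). JPH3 had the highest level per kb of the 4 and showed overlapping groups, with 467, 514 and 507 counts in siCHD4, against 354, 468 and 244 in siCtrl (log2 fold change -0.04 ± 0.26, edgeR adjusted p = 0.95). JPH1 and JPH2, the junctophilins of skeletal and heart muscle, had log2 fold changes of -0.78 ± 0.46 and 0.34 ± 0.92 and were not called, although without siCtrl replicate 3 JPH2 had one of 1.99 ± 0.72 (edgeR adjusted p = 0.0497).

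**Figure D2:**
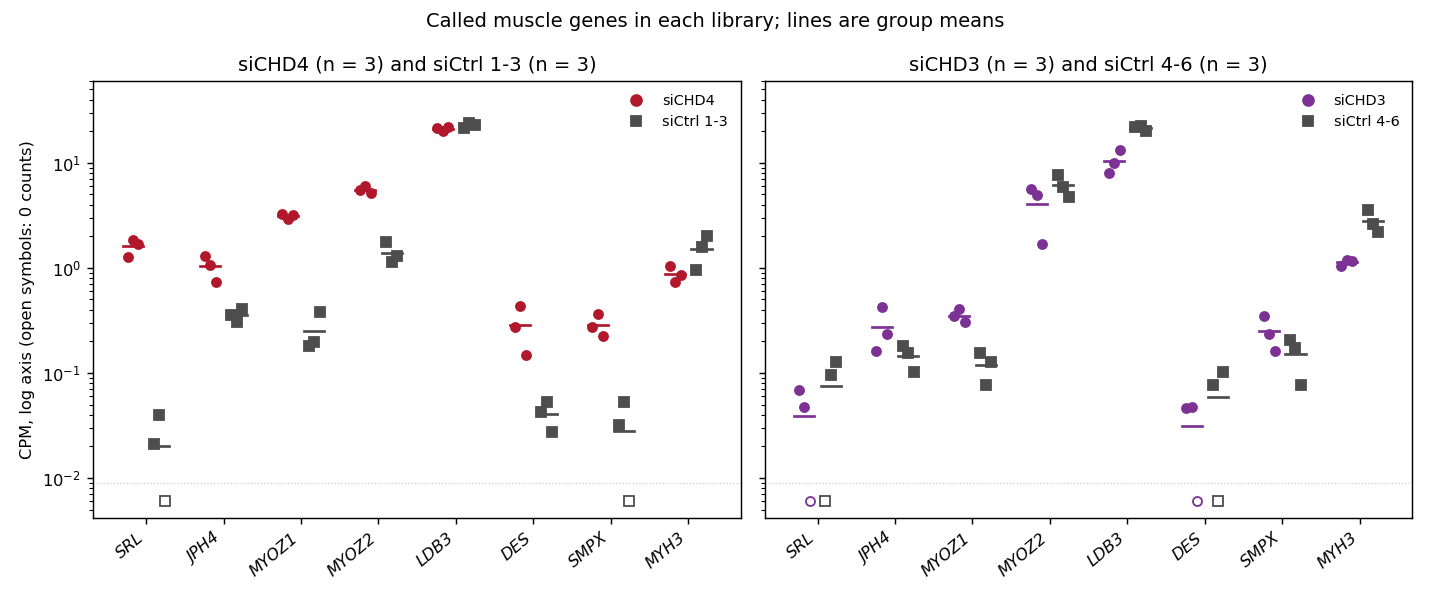
CPM (log axis) of the 8 genes called in either comparison, with 1 point per library and lines for the means of 3 libraries, siCHD4 and siCtrl replicates 1 to 3 on the left and siCHD3 and siCtrl replicates 4 to 6 on the right. Open symbols mark libraries with 0 counts. SRL averaged 1.60 CPM in siCHD4 and 0.0202 CPM in siCtrl, while MYOZ2 averaged 1.40 CPM in siCtrl replicates 1 to 3 but 6.10 CPM in siCtrl replicates 4 to 6.

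How firmly the 6 calls stood differed between them. SRL, MYOZ1 and MYOZ2 were called in each of the 13 alternative fits, with adjusted p up to 0.0166, 0.0213 and 0.0346. Here and below, 1 of the alternatives kept the reported fit and dropped only the fold threshold, so no call could be lost under it. SMPX, JPH4 and DES were called in 7 of 13, 8 of 13 and 8 of 12 fits, with adjusted p up to 0.119, 0.131 and 0.146. Leaving out siCHD4 replicate 1, siCHD4 replicate 2 or siCtrl replicate 2 left SRL, MYOZ1 and MYOZ2 as the 3 genes called. Over all genes these fits called 232, 300 and 260 higher, against 817 with all libraries, so calls were lost well beyond the members. Leaving out siCtrl replicate 3 gave 12 called genes, all higher, and the 6 added were MYL2, MYBPC1, MYH7B, MB, JPH2 and TNNC1.

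Beyond the calls, 12 of 29 genes with at least 20 counts in the higher group had every siCHD4 library above every siCtrl library, and 3 had every siCHD4 library below. Of all genes with as many counts, 17.5% were separated upward and 13.8% downward. The 12 included the 6 called genes and MYL2, MYBPC1, MYH7B, TNNI1, CKM and MB. MYL2, the regulatory light chain of slow and ventricular myosin, had 41, 33 and 40 counts in siCHD4, against 11, 1 and 0 in siCtrl. With 11 of its 12 siCtrl counts in replicate 1, MYL2 gave a log2 fold change of 2.90 ± 0.73 and missed the threshold (edgeR adjusted p = 0.0555). MYL2 was called in 5 of 13 alternative fits, among them DESeq2 (adjusted p = 0.00420), no filter on low counts (edgeR adjusted p = 0.00508) and 1 edgeR fit over the 12 libraries (adjusted p = 0.0124). Without siCtrl replicate 1 its log2 fold change was 5.31 (edgeR adjusted p = 0.00870), and without siCtrl replicate 3 it was 2.57 (edgeR adjusted p = 0.00360).

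MYBPC1, the slow form of myosin-binding protein C, had 20, 19 and 28 counts in siCHD4, against 0, 2 and 5 in siCtrl (log2 fold change 2.59 ± 0.88, edgeR adjusted p = 0.134). MYH7B, a slow-type myosin heavy chain, had 33, 16 and 29 counts in siCHD4, against 9, 9 and 6 in siCtrl (log2 fold change 1.20 ± 0.43, edgeR adjusted p = 0.153). Neither was called with all libraries. Myoglobin (MB), the oxygen store of muscle, had 18, 15 and 20 counts in siCHD4, against 2, 5 and 2 in siCtrl, and its log2 fold change of 2.05 ± 0.51 missed the threshold narrowly (edgeR adjusted p = 0.0526). Without siCtrl replicate 3, MB passed with an adjusted p of 0.0168 and MYH7B with one of 0.0423 (edgeR). MYBPC1 moved most of these 3, to a log2 fold change of 4.19 without that library (edgeR adjusted p = 0.00134), and it was also called with no filter on low counts and in 1 fit over the 12 libraries, at adjusted p just under 0.05.

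The other separated genes had too few counts to test. The slow skeletal troponin I gene TNNI1 had 3, 5 and 12 counts in siCHD4, against 1, 0 and 0 in siCtrl, a ratio of 14.8 (95% interval 2.37 to 613). The muscle creatine kinase CKM had 7, 8 and 8 counts in siCHD4, against 0, 2 and 1 in siCtrl, a ratio of 5.67 (1.71 to 29.5). The siCtrl libraries held 1 count of TNNI1 and 3 counts of CKM in all, and the intervals are wide.

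The 3 genes separated downward, all at the Z-disc or M-band, did not pass the test. They were ACTN2, the muscle alpha-actinin that crosslinks actin in the Z-disc, with 19, 10 and 12 counts in siCHD4, against 32, 18 and 9 in siCtrl (log2 fold change -0.90 ± 0.41, edgeR adjusted p = 0.257). TCAP, the titin cap protein telethonin, had 8, 15 and 14 counts in siCHD4, against 19, 22 and 7 in siCtrl (log2 fold change -0.79 ± 0.41, edgeR adjusted p = 0.310). MYOM1, the M-band crosslinker myomesin, had 19, 23 and 28 counts in siCHD4, against 39, 33 and 14 in siCtrl (log2 fold change -0.72 ± 0.30, edgeR adjusted p = 0.209). The siCtrl replicate 3 counts came from the smallest library, so the separation is one of CPM and not of raw counts.

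The most abundant members were not called after CHD4 silencing. LDB3, which links alpha-actinin to signalling proteins in the Z-disc, had 1872, 1744 and 2337 counts in siCHD4, against 2048, 1827 and 846 in siCtrl, at 21.2 ± 0.788 CPM in siCHD4 and 22.9 ± 1.23 CPM in siCtrl (log2 fold change -0.11 ± 0.18, edgeR adjusted p = 0.778). CKMT2 had 1077, 1035 and 1306 counts in siCHD4, against 887, 692 and 467 in siCtrl (log2 fold change 0.23 ± 0.21, edgeR adjusted p = 0.573). Both genes overlapped between the groups.

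TNNT1 had 328, 294 and 354 counts in siCHD4, against 253, 397 and 302 in siCtrl, and siCtrl replicate 3 held the highest level of the 6 libraries (log2 fold change -0.61 ± 0.38, edgeR adjusted p = 0.400). Without siCtrl replicate 3 its log2 fold change was -0.16 ± 0.26 (edgeR adjusted p = 0.691). MYH3 had 91, 63 and 92 counts in siCHD4, against 90, 119 and 73 in siCtrl (log2 fold change -0.76 ± 0.32, edgeR adjusted p = 0.222). In both genes the siCHD4 and siCtrl libraries overlapped.

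Among the remaining sarcomere genes, the heart and skeletal actins ACTC1 and ACTA1, the troponins TNNT2, TNNI3 and TNNC2 and the heavy chains MYH2 and MYH8 had at most 31 counts in any library of the siCHD4 table. NEB, the thin filament ruler nebulin, had 104, 96 and 161 counts in siCHD4, against 133, 88 and 16 in siCtrl, and its groups overlapped (log2 fold change 0.31 ± 0.39, edgeR adjusted p = 0.701). ACTC1, TNNT2, TNNI3 and JPH2 were highest in siCtrl replicate 3 among the 6 siCtrl libraries of both tables. TNNC1, the slow and cardiac troponin C, had 11, 36 and 39 counts in siCHD4, against 2, 8 and 9 in siCtrl, and its groups overlapped on the CPM scale (log2 fold change 1.51 ± 0.78, edgeR adjusted p = 0.311), while without siCtrl replicate 3 its log2 fold change was 2.33 ± 0.71 (edgeR adjusted p = 0.0285). MYH7, the slow and cardiac beta-myosin heavy chain, had 5, 1 and 6 counts in siCHD4, against 0, 0 and 1 in siCtrl.

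The second comparison asked the same of CHD3 silencing. Of 13 genes tested, 1 rose and 2 fell, against 3.89% higher and 4.33% lower of all 16115 genes tested. MYOZ1 was the gene that rose, and MYH3 and LDB3 fell. At an unadjusted p under 0.05, 6 of the 13 passed in either direction, against 33.0% of all genes tested, and the median log2 fold change of the 13 was -0.28, against -0.02 for all genes tested. Of 19 genes with at least 20 counts in the higher group, 2 had every siCHD3 library above every siCtrl library and 7 had every one below, against 18.2% and 17.6% of all genes with as many counts.

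LDB3 (ENSG00000122367, 88426542 to 88495829 on the plus strand of chromosome 10) had 342, 419 and 730 counts in siCHD3 replicates 1 to 3, against 862, 1150 and 794 in siCtrl replicates 4 to 6. All siCHD3 libraries were lower, at 10.3 ± 2.64 CPM in siCHD3 and 21.5 ± 1.08 CPM in siCtrl, with siCHD3 replicate 3 nearest to siCtrl. LDB3 fell with a log2 fold change of -1.06 ± 0.19 (adjusted p = 0.00221, edgeR), just past the fold threshold. Without siCHD3 replicate 1 its log2 fold change was -0.89, inside that threshold, and without siCHD3 replicate 2 it was -0.9987, although the adjusted p stayed at 0.00783 and 0.00834. Another annotated protein-coding gene on the same strand shares 16.4% of the exon bases of LDB3.

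MYH3 (ENSG00000109063, chromosome 17, 10531843 to 10560626, minus strand) had 45, 50 and 65 counts in siCHD3, against 139, 137 and 87 in siCtrl. Its groups did not overlap, at 1.13 ± 0.0773 CPM in siCHD3 and 2.80 ± 0.684 CPM in siCtrl, and it fell with a log2 fold change of -1.31 ± 0.26 (adjusted p = 0.00379, edgeR). MYH3 was called in each of 12 alternative fits, with adjusted p up to 0.0133. The skeletal myosin heavy chain genes lie in a cluster of close relatives, and how reads shared between them were counted is not given in the sources used here.

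MYOZ1 had 15, 17 and 17 counts in siCHD3, against 6, 4 and 5 in siCtrl. Every siCHD3 library was higher, at 0.352 ± 0.0478 CPM in siCHD3 and 0.119 ± 0.0388 CPM in siCtrl, and the log2 fold change was 1.57 ± 0.46 (edgeR adjusted p = 0.0301). This call was lost in 6 of 12 alternative fits, among them DESeq2 (adjusted p = 0.101) and each fit without siCHD3 replicate 1, 2 or 3 or siCtrl replicate 5 or 6 (adjusted p 0.0578 to 0.135). JPH3 was the other gene separated upward, with 86, 127 and 174 counts in siCHD3, against 45, 88 and 72 in siCtrl (log2 fold change 0.79 ± 0.27, edgeR adjusted p = 0.0566).

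The other 5 genes separated downward did not pass. ACTN2 had 0, 5 and 8 counts in siCHD3, against 13, 19 and 12 in siCtrl, and stood at the edge of the threshold (log2 fold change -1.86 ± 0.62, edgeR adjusted p = 0.0501). NEB had 67, 57 and 89 counts in siCHD3, against 92, 135 and 90 in siCtrl (log2 fold change -0.69 ± 0.23, edgeR adjusted p = 0.0534). ACTN2 was called lower in 4 of 12 alternative fits and NEB in none.

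CKMT2 had 508, 475 and 552 counts in siCHD3, against 475, 635 and 611 in siCtrl, a small separation (log2 fold change -0.28 ± 0.17, edgeR adjusted p = 0.286). TNNC1 had 3, 1 and 0 counts in siCHD3, against 9, 4 and 8 in siCtrl, a ratio of 0.176 (95% interval 0.0439 to 0.521). MYH8, a heavy chain of developing muscle, had 2, 2 and 7 counts in siCHD3, against 6, 7 and 8 in siCtrl, a ratio of 0.484 (0.211 to 1.05). TNNC1 and MYH8 were too low to test.

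Several genes that were higher after siCHD4 were near silent in the whole siCHD3 table. SRL had 3, 2 and 0 counts in siCHD3, against 0, 5 and 5 in siCtrl replicates 4 to 6. DES had 2, 2 and 0 counts in siCHD3, against 3, 0 and 4 in siCtrl. MYL2 had 1 count in siCHD3 and 1 in siCtrl, summed over each group.

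SMPX and JPH4 had counts in all libraries of the siCHD3 table but too few to test. SMPX had 15, 10 and 9 counts in siCHD3, against 8, 9 and 3 in siCtrl, a ratio of 1.57 (95% interval 0.878 to 2.88). JPH4 had 7, 18 and 13 counts in siCHD3, against 7, 8 and 4 in siCtrl, a ratio of 1.85 (1.04 to 3.39). TNNT1 showed no separation, with 100, 103 and 111 counts in siCHD3, against 87, 111 and 99 in siCtrl (log2 fold change -0.03 ± 0.23, edgeR adjusted p = 0.946).

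MYOZ2 was well counted in the siCHD3 table and was not called there. It had 241, 207 and 94 counts in siCHD3, against 302, 302 and 186 in siCtrl, at 4.06 ± 2.08 CPM in siCHD3 and 6.10 ± 1.51 CPM in siCtrl (log2 fold change -0.59 ± 0.40, edgeR adjusted p = 0.339). The control level of MYOZ2 differed between the tables. The level that MYOZ2 reached in siCHD4, 5.55 CPM, was lower than its 6.10 CPM in siCtrl replicates 4 to 6, while siCtrl replicates 1 to 3 were at 1.40 CPM. The tables were scaled separately, so these levels are set side by side without a test, and what separates the 2 sets of siCtrl libraries is not given by the labels.

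**Figure D3:**
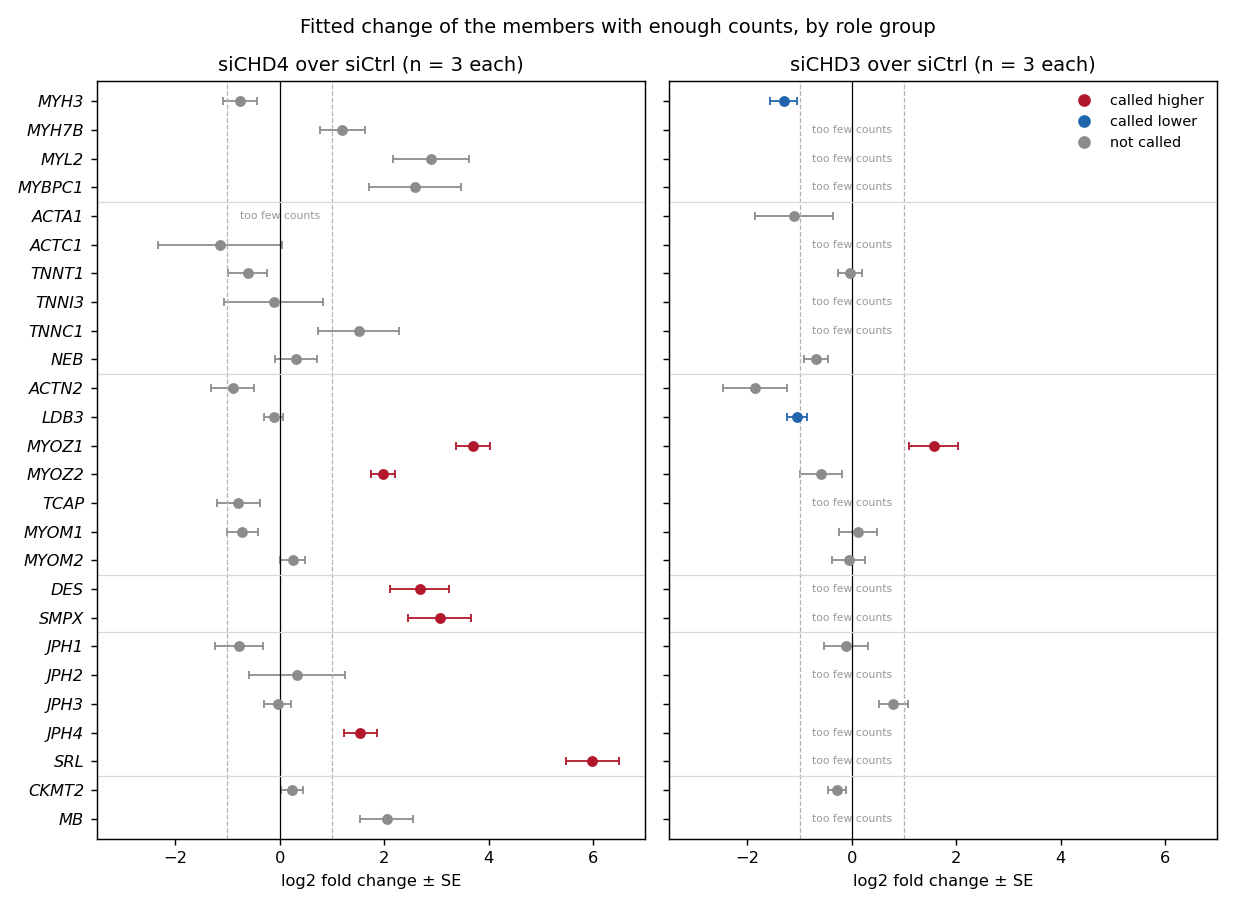
Log2 fold change ± SE of each gene with enough counts in at least 1 comparison, siCHD4 over siCtrl replicates 1 to 3 on the left and siCHD3 over siCtrl replicates 4 to 6 on the right, in role groups separated by grey lines, with dashed lines at the fold threshold of 1. After siCHD4 6 genes are called higher, led by SRL at 5.99, and after siCHD3 MYOZ1 is called higher (1.57) and MYH3 and LDB3 lower (-1.31 and -1.06).

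The third comparison tested whether the responses to CHD4 and CHD3 silencing differed, each against its own siCtrl libraries, which the comparisons do not share. Of 21 genes tested over the 12 libraries, 3 had a response that was higher for siCHD4 and none a lower one, against 6.1% and 5.57% of all 17357 genes tested. They were SRL (log2 difference 7.01 ± 1.25, edgeR adjusted p = 0.00306), MYOZ2 (2.60 ± 0.50, edgeR adjusted p = 0.00498) and MYOZ1 (2.15 ± 0.49, edgeR adjusted p = 0.0119). All 3 were called in each of 17 alternative fits. MYOZ1 rose in both silencings, with a larger rise in siCHD4.

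For the other genes called in 1 silencing, the difference did not pass both thresholds. LDB3 had a log2 difference of 0.95 ± 0.26 with an adjusted p of 0.0291, inside the fold threshold. SMPX (2.37 ± 0.80, edgeR adjusted p = 0.0698), JPH4 (0.67 ± 0.56, edgeR adjusted p = 0.478) and MYH3 (0.57 ± 0.40, edgeR adjusted p = 0.398) were not called, and DES was too low over the 12 libraries to be tested. JPH3, with opposite signs in the 2 fits, had a log2 difference of -0.82 ± 0.38 (edgeR adjusted p = 0.174).

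**Figure D4:**
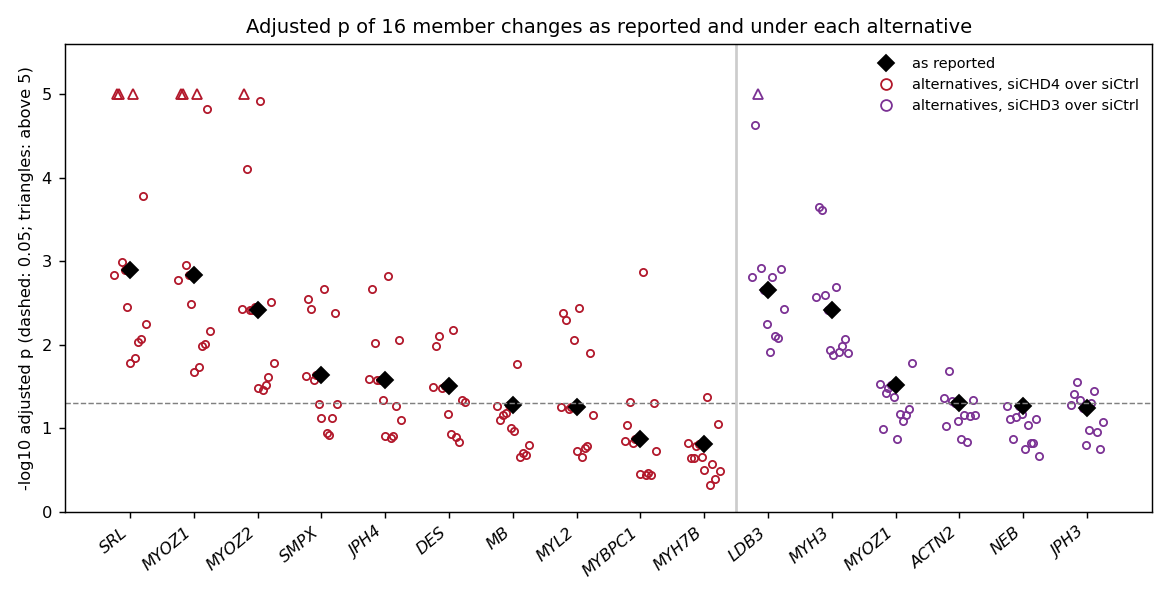
Adjusted p, as -log10, of 16 gene changes as reported (diamonds) and under each alternative fit (circles, or triangles above 5), siCHD4 over siCtrl on the left of the grey line and siCHD3 over siCtrl on the right, with a dashed line at 0.05. SRL, MYOZ1 and MYOZ2 in siCHD4 and MYH3 and LDB3 in siCHD3 lie above the line in every fit, while MYOZ1 in siCHD3 falls on both sides.

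Genes that work beside the sarcomere moved in part. Of 12 tested genes of excitation-contraction coupling, 3 rose after siCHD4 and none fell, against the 4.8% higher and 1.65% lower of all genes. RYR2, the cardiac calcium release channel, had 176, 205 and 260 counts in siCHD4, against 61, 44 and 12 in siCtrl (log2 fold change 2.1 ± 0.29, edgeR adjusted p = 0.00690). RYR1, its skeletal relative, had 46, 70 and 51 counts in siCHD4, against 10, 3 and 1 in siCtrl (log2 fold change 3.21 ± 0.51, edgeR adjusted p = 0.0106). CACNA1S, the voltage sensor of the skeletal triad, had 22, 19 and 24 counts in siCHD4, against 1, 4 and 1 in siCtrl (2.92 ± 0.56, edgeR adjusted p = 0.0206). RYR1 and CACNA1S were near silent in siCtrl, so being tested depended in part on their siCHD4 counts. The share above therefore describes the list and is not a test of it. None of the 4 genes of this list tested after siCHD3 was called.

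Of 29 other sarcomere and costamere genes tested after siCHD4, 3 rose and none fell, against the same shares of all genes. They were CRYAB, the small heat shock chaperone of desmin (2.31 ± 0.25, edgeR adjusted p = 0.00307), ANKRD1, a stress-responsive ankyrin repeat protein of heart (3.77 ± 0.45, edgeR adjusted p = 0.00412), and DYSF, the membrane repair protein dysferlin (1.74 ± 0.35, edgeR adjusted p = 0.0243). After siCHD3, 1 of 28 rose and 5 fell, against 3.89% higher and 4.33% lower of all genes. CRYAB fell with a log2 fold change of -1.89 ± 0.18 (adjusted p = 3.9e-05, edgeR), FHL2 with one of -1.03 ± 0.13 (edgeR adjusted p = 0.000251) and ANKRD1 with one of -3.72 ± 0.44 (edgeR adjusted p = 0.000582), while PDLIM3 rose by 1.01 ± 0.14 (edgeR adjusted p = 0.000463). The other 2 that fell were MYPN and OBSL1, named here after their values were seen.

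CRYAB and ANKRD1 thus moved in opposite directions in the 2 silencings, and the test of the difference called both (log2 difference 4.21 ± 0.30 and 7.50 ± 0.70). ANKRD1 had 339, 517 and 561 counts in siCHD4, against 59, 16 and 8 in siCtrl replicates 1 to 3, and 40, 35 and 11 counts in siCHD3, against 336, 517 and 260 in siCtrl replicates 4 to 6. As with MYOZ2, the siCtrl level of ANKRD1 was the lower one in the siCHD4 table, 0.351 CPM in siCtrl replicates 1 to 3 and 8.39 CPM in siCtrl replicates 4 to 6. HSPB2, on the opposite strand, shares 13.6% of the exon bases of CRYAB, and the strand of counting is not given in the sources used here.

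No transcription factor of muscle programmes was called. Of 19 myogenic and cardiac factors 9 were tested after each silencing. MYOD1, the master regulator of skeletal muscle, had 2, 4 and 0 counts in siCHD4, against 0, 0 and 4 in siCtrl, and MYOG, myogenin, had 1, 1 and 6 counts in siCHD4, against 0 in each siCtrl library. MEF2A, MEF2C and MEF2D were well expressed, at 33.4, 33.1 and 73.9 CPM in siCHD4 and 27.7, 35.9 and 87.1 CPM in siCtrl, with log2 fold changes of 0.27, -0.12 and -0.24. After siCHD3, MEF2C (log2 fold change 0.57 ± 0.13, edgeR adjusted p = 0.00928) and MEF2D (0.74 ± 0.18, edgeR adjusted p = 0.0133) were higher but inside the fold threshold. SRF, which binds CArG boxes, had a log2 fold change of -0.73 ± 0.24 after siCHD4 (edgeR adjusted p = 0.130) and of -0.48 ± 0.17 after siCHD3 (edgeR adjusted p = 0.0658).

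Of 29 smooth muscle and non-muscle relatives tested after siCHD4, 1 rose and none fell, against 4.8% higher and 1.65% lower of all genes. After siCHD3 none of 27 rose and 3 fell, against 3.89% higher and 4.33% lower of all genes. CNN1, the smooth muscle calponin, had 103, 122 and 159 counts in siCHD4, against 3, 15 and 1 in siCtrl, and rose by a log2 fold change of 3.88 ± 0.61 (adjusted p = 0.0100, edgeR). After siCHD3 CNN1 had a log2 fold change of -3.49 ± 0.60 (adjusted p = 0.00147, edgeR), and fell together with the smooth muscle actin ACTA2 (-2.04 ± 0.41, edgeR adjusted p = 0.00402) and TAGLN (-2.27 ± 0.42, edgeR adjusted p = 0.00528). ACTA2 shares 36.2% and TAGLN 47.8% of its exon bases with other annotated genes, so their counts are uncertain.

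Desmin is also a smooth muscle marker, so the 7 smooth muscle markers stand beside it. Of 6 tested after siCHD4, CNN1 and DES rose, while ACTA2 had 14, 15 and 15 counts in siCHD4, against 17, 5 and 6 in siCtrl. Of all genes tested, 4.8% were higher and 1.65% lower after siCHD4, and 3.89% higher and 4.33% lower after siCHD3. The summed level of the 7 markers was 33.4 to 47.9 CPM in siCHD4 and 17.1, 29.1 and 79.6 CPM in siCtrl replicates 1 to 3. These sums overlapped only through siCtrl replicate 3. LMOD1 was at 0 in 2 siCHD4 libraries. Of 5 fibroblast markers tested PDGFRB rose after siCHD4 (1.65 ± 0.33, edgeR adjusted p = 0.0238). The summed level of the list was 8.88 to 9.44 CPM in siCHD4 and 7.14 to 10.2 CPM in siCtrl. These ranges overlapped only through siCtrl replicate 3, at 7.14 CPM. After siCHD3 the fibroblast sum was higher in every library, at 18.8 to 31.5 CPM in siCHD3 and at most 14.2 CPM in siCtrl replicates 4 to 6, and most of it was LUM, the matrix proteoglycan lumican, the 1 of 4 tested markers called (1.05 ± 0.20, edgeR adjusted p = 0.00273). After siCHD3, 3 of the 4 tested fibroblast markers had a positive log2 fold change. COL1A2 and COL3A1, also on that list, had 5 counts each over the 3 siCHD3 libraries. The response of PDGFRB was higher for siCHD4 than for siCHD3 (log2 difference 3.84 ± 0.65, edgeR adjusted p = 0.00228). The smooth muscle sum after siCHD3 overlapped, at 14.3 to 25.1 CPM in siCHD3 and 22.9 to 38.9 CPM in siCtrl, and 3 of its 4 tested markers fell. The part of other cell types in these results was not tested.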

How the data were processed

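For 12 libraries of polyA RNA, amplified linearly before library preparation, the authors deposited 2 tables of raw counts by Ensembl gene (57773 and 57778 rows, of which 5 in the siCHD3 table name no gene and were left out). Normalized signal was deposited beside them, which a check showed to equal each count over a single size factor of its library, and also that signal over gene length. Tools named by the submitters' processing notes are HTSeq, DESeq2, TopHat2 2.0.10, Bowtie2 2.1.0 and 2.2.8, cutadapt 1.10 and CASAVA 1.8.2, with the build hg19. Strand of counting and annotation release are not given in these sources. The deposited fold changes and p-values of the authors were not used.

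Genes passing filterByExpr were scaled with TMM factors and tested in edgeR 4.0.16 in R 4.3.3 (glmQLFit robust, glmQLFTest), each silencing against the siCtrl libraries of its own table, and the difference as an interaction over 12 libraries. DESeq2 1.42.0 was an alternative. Fits were tested on simulated data. Each library held 38573214 or more counts, and 1 read was worth at most 0.0273 CPM. Exact intervals and the floor of 3 counts for a group at 0 cover counting error only. Coordinates and exon overlap came from GENCODE v44lift37, matched by gene ID. The deposited gene lengths were far shorter than the annotated exons for several members (596 and 6684 bases for MYH3), so levels per kb used the exon bases, a choice made after the lengths were seen, and the leading gene of each role group was the one given by either length.

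The members and gene lists were chosen with earlier results of these data known. Values in every library are given for members called, members whose groups did not overlap with at least 20 counts in the higher group, and the member with the highest level per kb in each role group. From each other list, up to 4 called genes with the smallest adjusted p are named. Replicate numbers of siCHD4 and siCtrl gave no sign of pairing the libraries, with same-numbered deviations correlated at 0.0334, 0.0199 and 0.0235. With few libraries per group, and siCtrl replicate 3 apart, this cannot show that they were unpaired.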

Additional observations from a re-analysis of the deposited data

Results flagged for a closer look

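Among the 6 siCtrl libraries of both tables, siCtrl replicate 3 lay far above the other 5 for 4 of 24 members examined. ACTC1 was at 0.845 CPM there (up to 0.145 in the others), TNNT2 at 0.409 CPM (up to 0.0658), TNNI3 at 0.409 CPM (up to 0.0790) and JPH2 at 0.354 CPM (up to 0.0658). Chance marks about 1 in 20 such groups, and these genes had 13 to 31 counts in that library, whose scaling factor was 0.816. Its part in these values was not tested.

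The responses to CHD4 and CHD3 silencing differed by the interaction test for 3 members, each higher after siCHD4. The log2 difference was 7.01 for SRL, 2.60 for MYOZ2 and 2.15 for MYOZ1. In the siCHD3 table SRL was near silent in all 6 libraries, and MYOZ2 had a siCtrl level of 6.10 CPM, against 1.40 CPM in siCtrl replicates 1 to 3.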

How the results depend on the processing

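The 23 gene changes examined were those of members called or with groups that did not overlap, so their direction was likely to hold. None of them changed direction under the alternative fits run. Outside that set, without siCtrl replicate 3 the siCHD4 log2 fold change of ACTC1 went from -1.14 to 0.94. That of TNNI3 went from -0.12 to 1.30 and that of JPH3 from -0.04 to 0.13, and none of these was called. The 3 counts of called genes held within 1.5 times their reported value (6 for siCHD4, 3 for siCHD3 and 3 for the difference) under DESeq2 size factors (6, 4 and 3), the DESeq2 Wald test (7, 2 and 4), no filter on low counts (8, 4 and 3), a total of at least 30 counts (6, 4 and 3), no fold threshold (6, 3 and 4) and, for the 2 silencings, 1 fit over the 12 libraries (7 and 3). Leaving out 1 library gave 3 to 12 for siCHD4, 1 to 4 for siCHD3 and 3 to 5 for the difference. The 12 and the 5 came without siCtrl replicate 3, the 3 without siCHD4 replicate 1, siCHD4 replicate 2 or siCtrl replicate 2, and the 1, MYH3, without siCHD3 replicate 1 or 2, where fewer libraries entered the fit. With replicate number as a block, 4 genes were called for siCHD4 (DES, MYOZ1, MYOZ2 and SRL), and over all genes 491 were higher and 111 lower. Whether the numbers pair the libraries could not be settled, so no conclusion is drawn from the lower count. The siCHD3 numbers 1 to 3 and siCtrl numbers 4 to 6 share none, so no block was fitted there. Over these gene changes and fits, 265 values stayed on their side of the threshold, 23 lost the call and 14 gained it. The setting with no fold threshold kept the reported fit, so its values could not lose a call. The 31 count ratios of untested members moved by less than their counting intervals when library totals replaced TMM, and 1 crossed 1 (TCAP in siCHD3, 1.01 with TMM and 0.973 without). The median siCHD4 log2 fold change over all genes was -0.06 as reported and 0.02 with the DESeq2 Wald test or no filter. Across all genes, leaving out siCtrl replicate 3 raised the siCHD4 calls to 1551 higher and 479 lower, against 817 and 280 with all libraries. Leaving out siCHD4 replicate 1, siCHD4 replicate 2 or siCtrl replicate 2 lowered them to 232, 300 and 260 higher and 29, 38 and 52 lower. Counts were too few to test 16 of the 41 members with counts in the siCHD4 table and 26 of the 39 in the siCHD3 table.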

Other observations

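Coding genes within 100 kb of the 8 called members were examined, a choice made after the calls were known. Of 33 such neighbours, 22 were tested after siCHD4, with 1 higher and none lower, and 23 after siCHD3, with none higher and 1 lower. Of all genes tested, 4.8% were higher and 1.65% lower after siCHD4, and 3.89% higher and 4.33% lower after siCHD3. The calls among the neighbours were near these shares. DHRS2, a short-chain dehydrogenase gene 51325 bases from JPH4, rose after siCHD4 (log2 fold change 1.53 ± 0.23, edgeR adjusted p = 0.00877), and ZFHX2, 11846 bases from JPH4, fell after siCHD3 (-1.63 ± 0.39, edgeR adjusted p = 0.0116). No other neighbour was called. SYNPO2L, a Z-disc protein gene 3407 bases from MYOZ1, had a log2 fold change of 0.43 ± 0.37 after siCHD4 (edgeR adjusted p = 0.558), while MYOZ1 had one of 3.70. SPEG, a striated muscle kinase gene 8108 bases from DES, had one of 1.03 ± 0.33 (edgeR adjusted p = 0.114). None of the 4 tested neighbours of SRL and neither neighbour of MYOZ2 was called in either silencing.

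In the difference of the responses, 5 of 29 tested sarcomere and costamere genes beside the members were higher for siCHD4 and 3 lower. The shares of all genes tested were 6.1% and 5.57%. The 5 included CRYAB, ANKRD1 and MYPN (3.24 ± 1.00, edgeR adjusted p = 0.0499), and the 3 included PDLIM3 (-1.02 ± 0.23, edgeR adjusted p = 0.0098). Of 12 tested genes of excitation-contraction coupling, 1 was higher, RYR2 (2.06 ± 0.49, edgeR adjusted p = 0.01465), and none was lower. SPEG (log2 difference 1.95 ± 0.47, edgeR adjusted p = 0.0161) and TRIM63, a muscle ubiquitin ligase (1.66 ± 0.22, edgeR adjusted p = 0.000467), were higher for siCHD4 without being called in either silencing alone. TMOD1, which caps thin filaments (-1.22 ± 0.24, edgeR adjusted p = 0.00461), and NRAP, a nebulin-related anchoring protein (-1.13 ± 0.26, edgeR adjusted p = 0.0131), were lower for siCHD4. TSTD2, on the opposite strand, and other annotated genes share 45.3% of the exon bases of TMOD1, so its counts are uncertain. These genes were named after their values were seen.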
